A study of Mus musculus with 9 samples.

Results

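The 10 genes described here are *Evx1* and the 9 genes of the *HoxA* cluster from *Hoxa3* to *Hoxa13*, followed through the limb bud mesenchyme of 3 genotypes. They were chosen by name, as neighbours on chromosome 6, and they are 10 of the 32289 features counted in each library. Single-cell RNA was profiled in mouse embryos at E10.75, with 3 libraries per genotype, each made from 1 pair of forelimb buds. The groups were wild type (Wt), E1C8Δ/Δ (EC1CRM8) and E1C5Δ/Δ (EC1CRM5). Both mutant alleles delete enhancers (CRMs) of *Grem1*, the BMP antagonist that relays signals between limb mesenchyme and the apical ectoderm, and both give limbs with a digit fewer than Wt. All embryos were of the Swiss Albino background and of either sex, without further treatment, and the deletions are germline alleles present in every cell. The replicates of a genotype were separate embryos.

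*Hox* genes encode homeodomain transcription factors that are arranged along the chromosome in the order in which they are used along the body and limb axes, an order called collinearity. In the limb bud the genes at the 3′ end of the *HoxA* cluster are used early and proximally, whereas *Hoxa11* marks the future forearm and *Hoxa13* the future hand. *Evx1* encodes a homeodomain repressor beyond the 5′ end of the cluster, next to *Hoxa13*. HOX proteins bind DNA together with TALE homeodomain cofactors of the MEIS, PKNOX and PBX families, and Polycomb and trithorax proteins hold the cluster silent or open.

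Between 460 and 6650 mesenchymal cells per library were kept, with 16454733 to 253898217 UMIs (counted RNA molecules) in all and a median of 16385 to 47446 per cell. Mesenchyme was recognised by at least 4 of 6 markers (*Prrx1*, *Prrx2*, *Pdgfra*, *Tbx5*, *Twist1*, *Tbx15*). The smallest library by cells and by summed UMIs was E1C8Δ/Δ replicate 1 and the next was Wt replicate 3, with 731 cells. The targeted gene moved as labelled: *Grem1* stood at 29.1 to 44.3 CPM (the UMIs of a gene per 1000000 UMIs in the same cells) in the Wt mesenchyme, at 11.1 to 14.1 in E1C8Δ/Δ and at 16.9 to 24.3 in E1C5Δ/Δ. Levels of *Xist* divided the libraries by sex, with all 3 Wt libraries male and 2 libraries of each mutant genotype female, so sex and genotype cannot be fully told apart. Any 2 libraries shared at most 28 cell barcodes.

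The annotated genes lie on chromosome 6 of GRCm38/mm10. *Hoxa3* (52169062–52213336), *Hoxa4* (52189671–52191753), *Hoxa5* (52201754–52204587), *Hoxa6* (52206288–52208722) and *Hoxa7* (52214491–52221854) form the 3′ part. *Hoxa9* (52223100–52231089), *Hoxa10* (52231197–52240854), *Hoxa11* (52242106–52245810) and *Hoxa13* (52257694–52260880) form the 5′ part. All 9 are read from the minus strand, and *Evx1* (52313498–52318378) from the plus strand. The longest annotated span of *Hoxa3* covers *Hoxa4*, *Hoxa5* and *Hoxa6*, but no exonic base of any member is shared with another gene on the same strand. For *Hoxa11*, 35.0% of exonic bases lie opposite its antisense RNA *Hoxa11os*, which the strand-aware counting keeps apart.

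The sequence just upstream of 4 of these genes is shown because they mark the ends of the pattern described next: *Hoxa5* was highest proximally, *Hoxa11* rose through every distal step, and *Hoxa13* and *Evx1* were almost limited to the distal end. Each line gives the 250 bases before the RefSeq start in GRCm38.p6, 5′ to 3′ on the gene's strand, with a CCAAT box (CCAAT or its complement ATTGG) in capitals.
Hoxa5 (chr6:52204588-52204837, minus strand): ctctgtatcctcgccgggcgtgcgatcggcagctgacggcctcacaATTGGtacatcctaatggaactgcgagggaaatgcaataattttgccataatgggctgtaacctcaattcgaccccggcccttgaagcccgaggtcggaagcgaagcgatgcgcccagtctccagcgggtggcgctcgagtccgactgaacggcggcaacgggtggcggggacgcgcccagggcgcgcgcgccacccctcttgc
Hoxa11 (chr6:52245811-52246060, minus strand): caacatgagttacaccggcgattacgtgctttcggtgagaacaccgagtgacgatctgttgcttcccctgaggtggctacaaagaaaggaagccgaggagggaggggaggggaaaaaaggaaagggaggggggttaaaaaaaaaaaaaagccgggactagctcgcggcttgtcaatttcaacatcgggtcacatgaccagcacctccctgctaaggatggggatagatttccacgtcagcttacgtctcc
Hoxa13 (chr6:52260881-52261130, minus strand): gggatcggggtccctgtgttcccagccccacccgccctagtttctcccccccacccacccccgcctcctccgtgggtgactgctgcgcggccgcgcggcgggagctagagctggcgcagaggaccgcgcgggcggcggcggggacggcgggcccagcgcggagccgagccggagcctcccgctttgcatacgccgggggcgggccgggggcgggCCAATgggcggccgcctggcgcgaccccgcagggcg
Evx1 (chr6:52313248-52313497, plus strand): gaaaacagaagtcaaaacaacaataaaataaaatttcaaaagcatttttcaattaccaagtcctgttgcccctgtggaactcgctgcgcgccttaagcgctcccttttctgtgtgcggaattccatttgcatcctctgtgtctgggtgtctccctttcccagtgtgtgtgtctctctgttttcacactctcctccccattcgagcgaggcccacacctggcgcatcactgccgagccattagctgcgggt

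These windows differ in composition. The *Hoxa13* window is 80% G or C with 35 CpG dinucleotides, and that of *Evx1* 49.6% with 10, against medians of 52.4% and 6 over 32536 mouse promoter windows of the same length. *Hoxa5* (63.6%, 28 CpG) and *Hoxa11* (52%, 13 CpG) lie between them. The CCAAT box ends 32 bases before the start in *Hoxa13* and 200 bases before it in *Hoxa5*. It is a common word, present on either strand in 33.8% of all windows. The letters TTTACGAG, preferred by HOX13 proteins, occur in 0.111% of all windows and in none of the 10 windows of the members. The TALE core TGACAG (15.8% of all windows) occurs in that of *Hoxa3* alone, the PBX–HOX composite TGATNNAT (7.66%) in none, and a TATAAA box (12.3%) in 1 of the windows of *Hoxa10*. Windows were found for 9 of the 10 members and not for *Hoxa4*.

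To read the members by position, each mesenchymal cell was scored along both limb axes with genes outside the *Hox* clusters. The proximodistal score set *Cyp26b1*, *Sall3*, *Lmo2* and *Wnt5a* against *Rarb*, *Irx3*, *Meis2* and *Pkdcc*. The anteroposterior score set *Hand2*, *Osr1*, *Shh* and *Prdm1* against *Alx4*, *Boc*, *Pax1* and *Sox6*. Cut points common to all libraries, each library weighted equally, divided 33545 cells of at least 10000 UMIs into 5 proximodistal bins (bin 1 most proximal, bin 5 most distal) and 3 anteroposterior classes. These are ranges of a score and not cell types: 4.26% to 6.89% of cells lay within 0.1 of a proximodistal cut point, and 24.9% and 11.2% within 0.1 of the anteroposterior ones. The anteroposterior classes were uneven, with 51.4% to 61.9% of a library's cells in the anterior one, and each library gave 1 summed value per class.

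Along the proximodistal axis the 3′ and the 5′ part of the cluster ran in opposite directions. In the Wt libraries 4 of the 5 genes of the 3′ part fell from proximal to distal. *Hoxa4*, which is the most proximal member and contributes to axial patterning, stood at 9.52, 9.13 and 5.41 CPM in bin 1 of Wt replicates 1, 2 and 3 and at 2.40, 1.89 and 2.17 CPM in bin 5. *Hoxa5*, a regulator of the forelimb and lung domains, stood at 47.7, 44.2 and 37.9 CPM in bin 1 and at 27.3, 20.5 and 20.8 CPM in bin 5. Neither gene had overlapping values between the 2 ends of the axis. *Hoxa7* went from 63.8–76.9 CPM in bin 1 to 35.3–41.0 CPM in bin 5, and *Hoxa3* from 14.5–19.5 to 9.58–10.73 CPM. *Hoxa6* was the exception, with 2.81 to 6.57 CPM in bin 1 and 3.46 to 6.54 CPM in bin 5, which overlapped.

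The 5′ genes rose distally, and the further 5′ the gene, the steeper its rise. *Hoxa9*, which acts in limb outgrowth and is expressed in most of the bud, stood at 98.7, 89.8 and 87.2 CPM in bin 1 of the Wt libraries and at 205, 171 and 130 CPM in bin 5. *Hoxa10*, a patterning gene of the upper limb, went from 43.4, 48.9 and 49.9 CPM to 259, 216 and 222 CPM. *Hoxa11* went from 6.57, 8.62 and 7.42 CPM to 122, 112 and 89.2 CPM. *Hoxa11* rose at each step in all 3 Wt libraries and in replicate 1 passed through 15.4, 42.8 and 75.6 CPM in bins 2, 3 and 4. In Wt replicate 3 *Hoxa9* (145 CPM) and *Hoxa10* (228 CPM) were higher in bin 4 than in bin 5.

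*Hoxa13* and *Evx1* had a different shape, low in the proximal 3 bins and high in the last one. *Hoxa13* stood at 0.45, 0.64 and 0.80 CPM in bin 1 of the Wt libraries, which came from 8, 29 and 4 UMIs. It reached 3.88, 5.81 and 2.26 CPM in bin 4 and 25.6, 25.5 and 39.0 CPM in bin 5. *Evx1* stood at 0.06, 0.22 and 0 CPM in bin 1 (1, 10 and 0 UMIs), at 0.43, 1.41 and 1.07 CPM in bin 4 and at 5.37, 6.95 and 11.9 CPM in bin 5. Blood cells, which should lack *Hoxa13*, held 0 to 0.81 CPM over the 9 libraries, so the values in bin 1 are read as background.

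**Figure D1:**
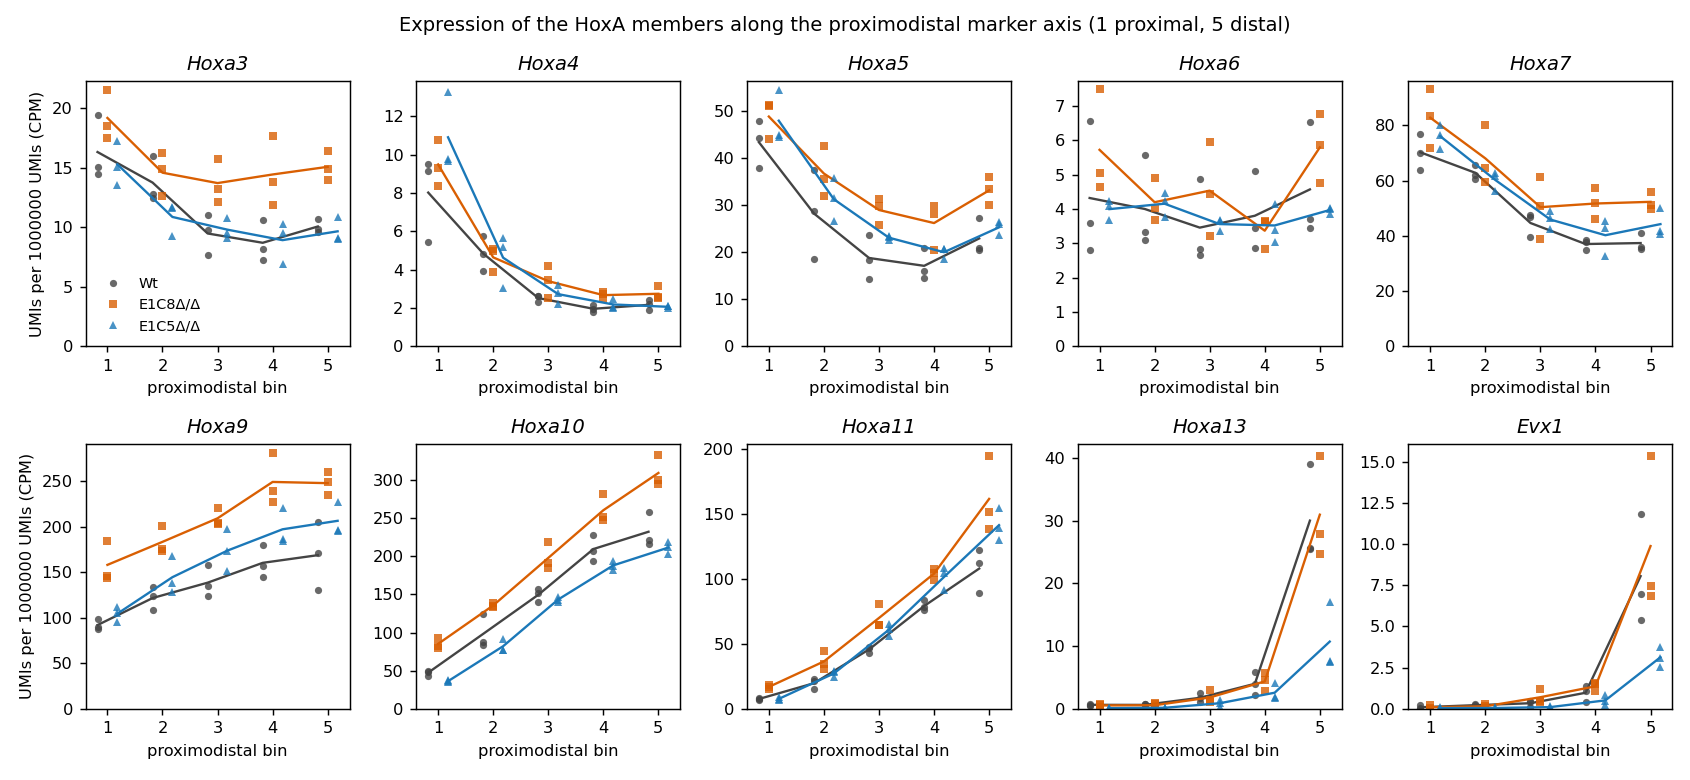
Level of each of the 10 genes (y axis, CPM) in the proximodistal bins from 1 (proximal) to 5 (distal) on the x axis; points are single libraries, coloured by genotype, and lines join the means of the 3 libraries of a genotype. *Hoxa3*, *Hoxa4*, *Hoxa5* and *Hoxa7* are lower in bin 5 than in bin 1, *Hoxa9*, *Hoxa10* and *Hoxa11* are higher, and *Hoxa13* and *Evx1* climb mainly in bin 5.

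Tested over all 9 libraries with the library as a block, 9 of the 10 members differed between bin 5 and bin 1, 5 higher and 4 lower distally. This contrast was large for the whole genome, with 66.0% of 14012 genes called at an adjusted p below 0.05 (edgeR quasi-likelihood test with Benjamini-Hochberg adjustment over all genes tested, used for every adjusted p here), so the order and sizes carry more than the count. The log2 fold change, distal against proximal, was −2.01 ± 0.10 (SE) for *Hoxa4* (adjusted p = 5.37e-13), −0.77 ± 0.06 for *Hoxa5*, −0.75 ± 0.04 for *Hoxa7* and −0.52 ± 0.06 for *Hoxa3*. It was 0.09 ± 0.07 for *Hoxa6* (adjusted p = 0.288). On the 5′ side it was 0.91 ± 0.06 for *Hoxa9*, 2.29 ± 0.11 for *Hoxa10*, 3.79 ± 0.16 for *Hoxa11* and 5.65 ± 0.10 for *Hoxa13* (adjusted p = 2.25e-21). *Evx1* had a log2 fold change of 5.60 ± 0.19, within the error of that of *Hoxa13*. Since both genes are at background in bin 1, the size of these 2 values depends on that background. Their SEs are derived from the test statistic and are approximate where UMIs are this few. The median over the members was 0.50, against 0.02 over all genes tested.

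The steps between neighbouring bins showed where along the axis each gene moved. From bin 1 to bin 2 the log2 change was 0.97 ± 0.08 for *Hoxa10* and 1.41 ± 0.12 for *Hoxa11*, but 0.37 ± 0.22 for *Hoxa13* (adjusted p = 0.226), and 29.3% of genes were called. *Evx1* had too few UMIs in these bins to be tested. The last step, from bin 4 to bin 5, was the steepest for *Hoxa13* (2.39 ± 0.15) and *Evx1* (2.59 ± 0.14). There *Hoxa9* no longer passed the test (0.05 ± 0.02, adjusted p = 0.132) and *Hoxa10* added 0.18 ± 0.03. At this step 7 of the 10 members were called, all higher, against 36.7% of genes in either direction.

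That last step also turned part of the 3′ group around. *Hoxa5* had fallen at each of the earlier steps (−0.51 ± 0.06, −0.45 ± 0.05 and −0.14 ± 0.04, with 24.7% of genes called from bin 2 to bin 3 and 22.3% from bin 3 to bin 4) and then rose by 0.33 ± 0.03 from bin 4 to bin 5 (adjusted p = 7.66e-10). In the Wt libraries its lowest level was in bin 4 in replicates 1 and 2 (20.8 and 15.8 CPM) and in bin 3 in replicate 3 (14.2 CPM). *Hoxa3* rose by 0.14 ± 0.05 (adjusted p = 0.0226) and *Hoxa6* by 0.30 ± 0.08 (adjusted p = 0.00281) at the same step. *Hoxa4* and *Hoxa7* did not pass the test there, with 0.05 ± 0.10 and 0.07 ± 0.03.

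A centroid summarised each gene by 1 number per library, its mean bin weighted by its level in each bin (1 if all its signal lay in the most proximal bin, 5 if all lay in the most distal). In Wt, *Hoxa4* lay at 2.27 ± 0.19 (SD, n = 3), *Hoxa5* at 2.60 ± 0.06, *Hoxa7* at 2.64 ± 0.02 and *Hoxa3* at 2.70 ± 0.04. *Hoxa6* followed at 3.02 ± 0.07, *Hoxa9* at 3.28 ± 0.09, *Hoxa10* at 3.65 ± 0.08, *Hoxa11* at 4.00 ± 0.11, *Hoxa13* at 4.67 ± 0.07 and *Evx1* at 4.72 ± 0.12. From *Hoxa9* to *Hoxa13* the order of the centroids was the order on the chromosome, and each gene lay distal to the one before it in 9 of 9 libraries. The gap from *Hoxa11* to *Hoxa13* was the widest, at 0.69 ± 0.10 over the 9 libraries.

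The order was not resolved everywhere. *Hoxa7* lay distal to *Hoxa5* in 6 of 9 libraries, with a mean gap of 0.03 ± 0.06, and *Evx1* distal to *Hoxa13* in 7 of 9, with a gap of 0.05 ± 0.06. Within the 3′ group the order departed from that on the chromosome, since *Hoxa3*, the first gene, lay distal to *Hoxa7* in 9 of 9 libraries, and to *Hoxa4* and *Hoxa5* by its mean. *Hoxd11* and *Hoxd13*, the paralogs of *Hoxa11* and *Hoxa13* in the *HoxD* cluster, had Wt centroids of 3.84 ± 0.06 and 4.20 ± 0.06.

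**Figure D2:**
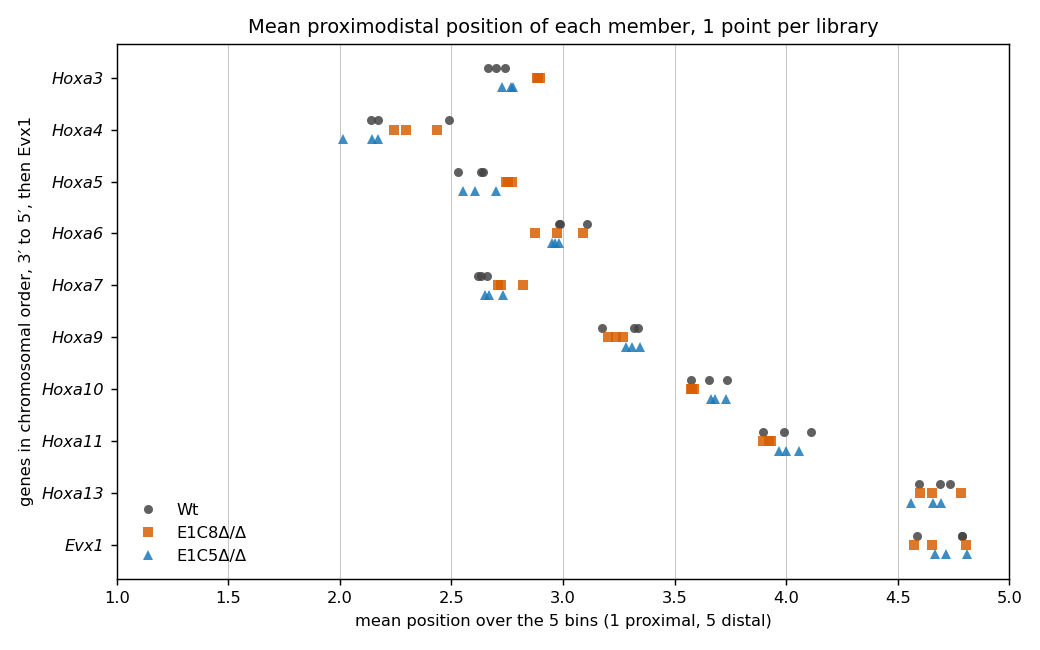
Proximodistal centroid (x axis, weighted mean bin from 1 to 5) of each gene (y axis); each point is 1 library, coloured by genotype. Wt means run from 2.27 for *Hoxa4* to 4.67 for *Hoxa13* and 4.72 for *Evx1*, and the 3 genotypes give the same order from *Hoxa6* to *Hoxa11*.

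Positions across the anteroposterior axis moved fewer members and by less. Between the posterior and the anterior class of all mesenchyme, 8 of the 10 members were called, 5 higher and 3 lower posteriorly, against 40.2% of 15263 genes. In the Wt libraries alone 2 were called higher and 3 lower, and in the mutant libraries 5 and 2. The 40.2% belongs to the contrast over all libraries, and no such share is given for these 2 contrasts. *Hoxa13* had the largest log2 fold change, 1.46 ± 0.10 (adjusted p = 1.84e-07), and *Hoxa4* the most negative one, −1.03 ± 0.10. *Hoxa10* had 0.36 ± 0.03, *Evx1* 0.36 ± 0.10, *Hoxa11* 0.24 ± 0.05 and *Hoxa9* 0.11 ± 0.04. The call of *Hoxa9* was kept without Wt replicate 1 or 3 or E1C8Δ/Δ replicate 3 and lost without any other library, and in the 3 Wt libraries it had 0.021 ± 0.05 (adjusted p = 0.83 with edgeR). There *Hoxa11* (0.18) and *Evx1* (0.29) were not called either (adjusted p = 0.206 and 0.114), and in E1C5Δ/Δ *Evx1* had a mean of 0.788 CPM in the anterior and 0.748 CPM in the posterior class. Without doublet removal the values of *Hoxa9*, *Hoxa11* and *Evx1* were 0.20, 0.56 and 0.71, and with cut points within each library 0.17, 0.43 and 0.61. *Hoxa5* (−0.34 ± 0.04) and *Hoxa3* (−0.17 ± 0.04) were lower posteriorly.

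The 2 axes are not independent in these cells, so the comparison was repeated within bin 5, a choice made after seeing the data. There 3 of the 10 members were called, against 20% of 12655 genes. *Hoxa13* remained posterior, with 1.64 ± 0.15 on the log2 scale (adjusted p = 6.97e-05), and *Evx1* had 0.67 ± 0.13 (adjusted p = 0.00024). *Hoxa9* was now lower posteriorly, by 0.22 ± 0.02 (log2 fold change −0.22, adjusted p = 1.93e-09). *Hoxa10* (−0.0028 ± 0.02) and *Hoxa11* (−0.26 ± 0.11, adjusted p = 0.146) had lost their posterior excess, and *Hoxa4* (0.052 ± 0.15) and *Hoxa5* (0.16 ± 0.07) their anterior one. Values within bin 5 of the Wt libraries averaged 17.4, 28.3 and 48.5 CPM for *Hoxa13* in the anterior, middle and posterior class, and 123, 117 and 81.2 CPM for *Hoxa11* (the middle class from 2 libraries). The Wt means of the 2 genes thus ran in opposite directions across the most distal mesenchyme. The test took Wt and mutant libraries together, called only *Hoxa13* of these 2 genes and was not run in Wt alone. *Hoxd13*, which is active in the posterior digit field, had 1.96 ± 0.07 in the same comparison.

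**Figure D3:**
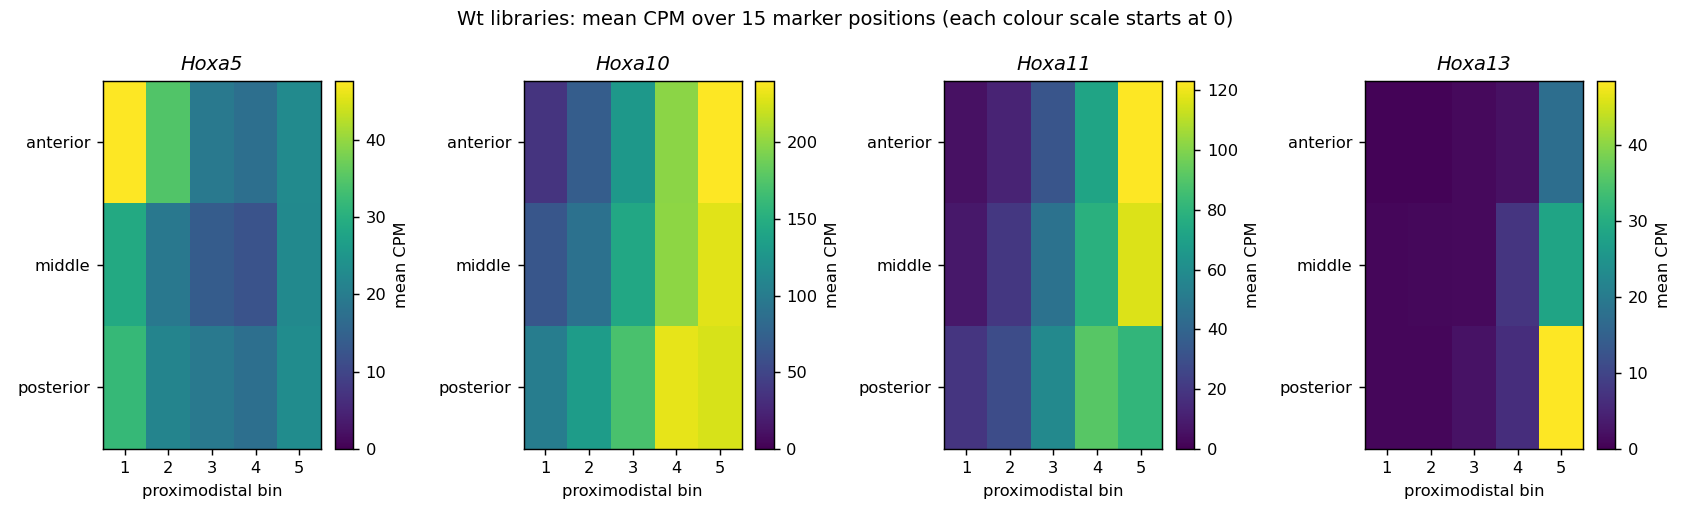
Mean Wt level (colour, CPM, each panel with its own scale) of *Hoxa5*, *Hoxa10*, *Hoxa11* and *Hoxa13* over 5 proximodistal bins and 3 anteroposterior classes. *Hoxa13* peaks at 48.5 CPM in the distal posterior position and *Hoxa11* at 123 CPM in the distal anterior one.

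Further mesenchymal gates gave levels only. Cells with *Shh*, the signal of the polarising region, held 48.5 and 73.6 CPM of *Hoxa13* in the 2 Wt libraries with at least 20 such cells. Chondrogenic cells (*Sox9*, *Col2a1*) held 0.48 to 1.36 CPM of *Hoxa13* and 21.2 to 41.6 CPM of *Hoxa11* over the 3 Wt libraries. Peripheral cells (*Asb4*, *Msx1*) held 11.4 to 19.4 CPM of *Hoxa13* and 4.73 to 7.92 CPM of *Evx1*. *Hoxa7* varied little over the same gates, with Wt means of 48.3 to 55.6 CPM.

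Of 15 neighbours of the cluster that are not members, 9 were higher and 5 lower in bin 5 than in bin 1, with a median log2 fold change of 0.23, in a contrast that called 66.0% of all genes. At the 3′ end *Hoxa2* (−2.66 ± 0.08) and the noncoding RNA *Hotairm1* (−3.02 ± 0.10) fell more steeply than *Hoxa3*. *Skap2*, the next gene outside the 3′ end, had −1.39 ± 0.06. At the 5′ end *Hoxa11os* had 4.39 ± 0.16, *Hottip*, a noncoding RNA beside *Hoxa13*, 5.57 ± 0.32 and *Evx1os*, antisense to *Evx1*, 5.58 ± 0.18. The other neighbours that rose were genes beyond *Evx1* or beyond *Skap2* with changes of 0.19 to 1.83, and *Hoxaas3* (0.08 ± 0.14) did not pass the test.

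The lists of cofactors and regulators were read against the same 66.0% of all genes called. Of 8 TALE cofactors tested, 6 were lower and 2 higher distally, with a median log2 fold change of −0.75. *Meis1* (−3.90 ± 0.07) and *Meis3* (−3.88 ± 0.12) led the fall, and *Pknox2* had 0.93 ± 0.22. *Meis2* set the gate and was left out. Of 17 Polycomb and trithorax genes tested, 6 were higher and 5 lower, all by less than 1 on the log2 scale, with a median of 0.015, a share near that of all genes. The histone methyltransferase complex genes *Eed* (0.25 ± 0.03) and *Suz12* (0.21 ± 0.03) were higher, and *Cbx8* (−0.37 ± 0.06), which reads the mark, was lower. Of 5 genes known to depend on HOXA13 in limb buds, *Bmp2* rose (1.87 ± 0.13), *Epha7* (−2.33 ± 0.07) and *Sostdc1* (−2.52 ± 0.14) fell, and *Bmp7* (0.11 ± 0.08) and *Aldh1a2* (−0.98 ± 0.64) did not pass the test, again a share near that of all genes.

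Over the 15 positions of the mean Wt profile (5 bins by 3 classes), the genes with a profile most like that of *Hoxa13* among 7983 genes of at least 10 CPM were *Tfap2b* (r = 0.977 of log2(CPM + 1)), *Arpc1b*, *Dlc1*, *Exosc1* and *Frmd4a*. *Tfap2b*, a transcription factor of the AP-2 family, ranged from 0.692 to 92.3 CPM and was highest in the distal posterior position, as *Hoxa13* was. The profile most like that of *Hoxa11* was that of its neighbour *Hoxa10* (r = 0.973), ahead of *Snrpn*, *Ube2e3*, *Hoxa11os* and *Cxxc4*. These correlations describe positions that share libraries and carry no test.

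Within bin 5, *Hoxa11* and *Hoxa13* were found in overlapping cells. Shares were taken after every cell had been thinned to 10000 UMIs. A *Hoxa13* UMI was then found in 16.0%, 18.1% and 30.7% of bin-5 cells of Wt replicates 1, 2 and 3, and a *Hoxa11* UMI in 63.0%, 59.3% and 39.9%. Blood cells thinned alike, whose median depth was 32772 UMIs against 27989 in mesenchyme, gave 0.273% and 2.50% (6 and 55 of 2201 cells). The Wt library with the largest share of *Hoxa13* cells had the smallest share of *Hoxa11* cells.

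Cells with a *Hoxa13* UMI held *Hoxa11* slightly less often on average than cells without one, and with all 9 libraries not beyond the spread between them. Over the 9 libraries the share with *Hoxa11* was 62.4% ± 13.5 (SD) among cells with *Hoxa13* and 67.9% ± 12.4 among the others. The mean difference was −5.43 points, negative in 6 of 9 libraries (two-sided exact permutation test by sign changes, p = 0.133). It was negative in 2 of 3 Wt, 3 of 3 E1C8Δ/Δ and 1 of 3 E1C5Δ/Δ libraries, with means of −7.97, −12.2 and 3.85 points. Whether the genotypes differ in this was not tested. The same permutation test gave p = 0.0313 without E1C5Δ/Δ replicate 3, and p of 0.0664 to 0.145 under the alternatives that kept all libraries. *Hoxa10* was found in 80.0% to 95.5% of cells with a *Hoxa13* UMI, about as often as in the others. *Hoxd13* in contrast was found more often in cells with *Hoxa13* in 9 of 9 libraries, by 40.8 ± 8.17 points (SD).

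The comparison of genotypes asked whether the loss of *Grem1* enhancers goes with a change in the *HoxA* genes. Over all mesenchyme, no member passed the test in both mutants together against Wt, while 8 of 10 had an unadjusted p below 0.05 and DESeq2 called 4. The share of all 16150 genes called was 2.03%. *Hoxa13* and *Evx1* had the largest differences, both lower in the mutants, with log2 fold changes of −1.12 ± 0.28 (adjusted p = 0.0856) and −0.96 ± 0.24 (adjusted p = 0.067). *Hoxa9* (0.38 ± 0.10, adjusted p = 0.0715) and *Hoxa5* (0.39 ± 0.12, adjusted p = 0.118) had values on the other side. The median over the members was 0.22, against −0.01 over all genes. *Hoxd13* in the same fit was lower by 0.84 ± 0.12 (log2 fold change −0.84, adjusted p = 0.00771). The study itself chose *Hoxa13* and *Hoxd13* as distal signature genes on these samples, so their direction here is not independent evidence. In whole limb buds of other embryos, stained for RNA, the study also reports a smaller *Hoxa13* domain in both mutants. In sums over cells of all positions, fewer cells of a position and less RNA per cell cannot be told apart. Bin 5 held 31.1%, 21.0% and 22.4% of the cells in Wt, 17.1%, 14.7% and 13.9% in E1C8Δ/Δ and 14.6%, 18.4% and 22.2% in E1C5Δ/Δ.

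In E1C8Δ/Δ mesenchyme *Hoxa9* and *Hoxa3* were higher than in Wt. *Hoxa9* stood at 226, 192 and 199 CPM in E1C8Δ/Δ against 168, 134 and 125 CPM in Wt, without overlap (log2 fold change 0.49 ± 0.11, adjusted p = 0.022). *Hoxa3* stood at 17.4, 15.2 and 13.6 CPM against 12.57, 10.72 and 10.01 CPM (0.43 ± 0.11, adjusted p = 0.0321). These 2 of the 10 members were called, both higher, against 8.89% of all genes. Both lost the call when sex was added as a covariate. *Hoxa9* also lost it without Wt replicate 2 or E1C8Δ/Δ replicate 1 or 3, and *Hoxa3* without Wt replicate 2 or 3 or any E1C8Δ/Δ library. *Hoxa5* (0.48 ± 0.14, adjusted p = 0.0535) and *Hoxa7* (0.34 ± 0.11, adjusted p = 0.0622) did not reach the threshold.

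In E1C5Δ/Δ mesenchyme *Evx1* was lower than in Wt. It stood at 0.61, 1.01 and 0.77 CPM against 1.96, 2.04 and 3.48 CPM in Wt (−1.58 ± 0.29, adjusted p = 0.021), the only member called, against 1.41% of all genes. *Hoxa13* stood at 1.70, 4.83 and 2.48 CPM against 9.93, 7.64 and 11.4 CPM, also without overlap (−1.65 ± 0.34, adjusted p = 0.0593). E1C8Δ/Δ lay between, at 8.27, 5.43 and 6.31 CPM, and its first library overlapped Wt. The call of *Evx1* was lost with sex as a covariate (−1.49, adjusted p = 0.18) and without Wt replicate 3, E1C5Δ/Δ replicate 1 or E1C5Δ/Δ replicate 3. Of the neighbours, *Hottip* (−2.36 ± 0.46, adjusted p = 0.0266) and *Evx1os* (−2.08 ± 0.40, adjusted p = 0.0339) were lower with it. *Hottip* was also the 1 of 15 neighbours called in both mutants together (−1.82 ± 0.37, adjusted p = 0.0293). In that comparison none of the TALE, Polycomb and trithorax or HOXA13-dependent genes passed the test.

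The 2 mutants were also compared directly. In mesenchyme *Hoxa10* was higher in E1C8Δ/Δ (204, 180 and 184 CPM) than in E1C5Δ/Δ (125, 134 and 140 CPM), by 0.42 ± 0.09 (adjusted p = 0.0144). *Evx1* differed by 1.24 ± 0.30 (adjusted p = 0.0247) and *Hoxa3* by 0.40 ± 0.11 (adjusted p = 0.0377). These 3 of 10 members were called, all higher in E1C8Δ/Δ, against 9.86% of genes. The call of *Hoxa10* was lost without E1C8Δ/Δ replicate 1 or 3. That of *Evx1* was lost without E1C8Δ/Δ replicate 1 or 2 or E1C5Δ/Δ replicate 1 or 3, and that of *Hoxa3* without Wt replicate 2 or any of the 6 mutant libraries. *Hoxa13* had 1.06 ± 0.35 (adjusted p = 0.0892).

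**Figure D4:**
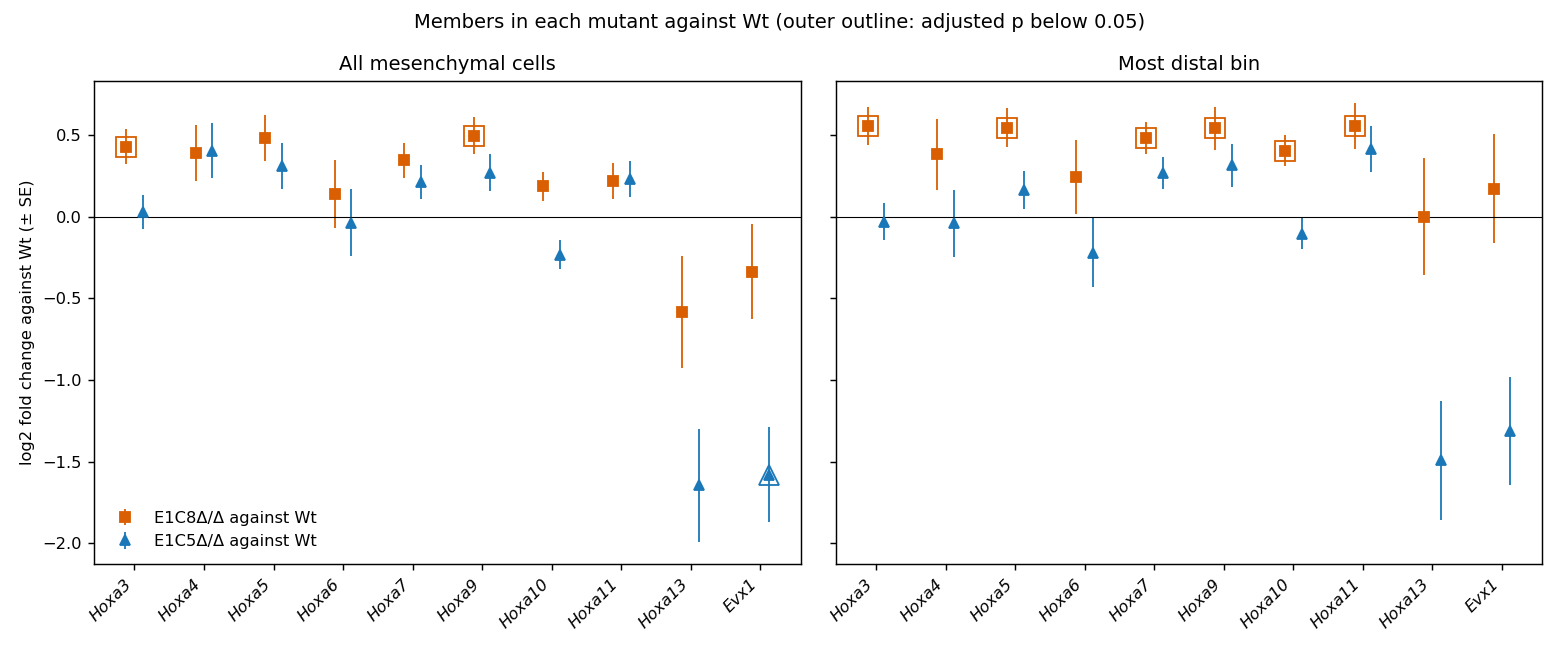
Log2 fold change (y axis, ± SE) of each gene (x axis) in E1C8Δ/Δ and in E1C5Δ/Δ against the same 3 Wt libraries, in all mesenchyme and in bin 5; outlined points have an adjusted p below 0.05. *Hoxa13* and *Evx1* have the lowest values in E1C5Δ/Δ (−1.65 and −1.58 in mesenchyme), and in bin 5 of E1C8Δ/Δ 6 of 10 genes are called higher.

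With the common cut points, some members were called higher in E1C8Δ/Δ than in Wt in every bin. The same score range need not be the same position in each genotype. The study reports lower *Wnt5a* and *Hand2* in the autopodial-digit cell cluster of both mutants, and reduced *Shh* expression. *Wnt5a* is part of the proximodistal score, and *Hand2* and *Shh* are part of the anteroposterior one. How far this shifts cells between bins was not tested. In bin 1 *Hoxa11* stood at 18.3, 16.7 and 15.5 CPM in E1C8Δ/Δ against 6.57, 8.62 and 7.42 CPM in Wt, with no overlap (1.09 ± 0.15, adjusted p = 0.0024). *Hoxa10* stood at 92.3, 80.4 and 83.0 CPM against 43.4, 48.9 and 49.9 CPM (0.81 ± 0.10, adjusted p = 0.00106). *Hoxa9* stood at 185, 144 and 146 CPM against 98.7, 89.8 and 87.2 CPM (0.74 ± 0.10, adjusted p = 0.00289). These 3 of the 9 members tested were called, against 1.93% of 13705 genes, and the count stayed at 3 when any single library was left out. With cut points set within each library, *Hoxa11* (0.79) and *Hoxa9* (0.59) kept their calls and *Hoxa10* did not (0.42, adjusted p = 0.0708).

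In the same bin of E1C5Δ/Δ none of these 3 genes passed the test against Wt. *Hoxa9* stood at 95.5, 105.7 and 112 CPM there, with 2 libraries above all of Wt (0.23 ± 0.10, adjusted p = 0.427). *Hoxa11* stood at 6.81, 7.23 and 8.74 CPM, overlapping Wt, and *Hoxa10* at 34.9, 36.2 and 37.6 CPM, below every Wt library. The log2 fold changes of these 2 genes against Wt were 0.04 ± 0.15 and −0.34 ± 0.10 (adjusted p = 0.967 and 0.185). Tested directly, E1C8Δ/Δ was above E1C5Δ/Δ by 1.14 ± 0.10 for *Hoxa10* (adjusted p = 0.000152) and by 1.05 ± 0.14 for *Hoxa11* (adjusted p = 0.00227), where 3.52% of genes were called. *Hoxa10* was above E1C5Δ/Δ in each of bins 2 to 5 as well, by 0.65 ± 0.12, 0.41 ± 0.10, 0.40 ± 0.10 and 0.51 ± 0.09 (adjusted p of 0.00685 to 0.0259), against backgrounds of 6.93%, 7.03%, 8.12% and 8.19%. These calls held without any single library in bins 1, 2 and 5. In bin 3 the call was lost without any 1 of the 6 mutant libraries and with cut points within each library (0.29, adjusted p = 0.116), and in bin 4 without E1C8Δ/Δ replicate 1, 2 or 3 or E1C5Δ/Δ replicate 2. The 1 member called in E1C5Δ/Δ against Wt in bin 1 was *Hoxa13* (−2.57 ± 0.48, adjusted p = 0.0348), against 0.358% of genes. It rests on 4, 1 and 4 UMIs in E1C5Δ/Δ, in a bin where the Wt level is itself background, and DESeq2 did not call it.

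In bins 2 to 4 of E1C8Δ/Δ the members called against Wt, all higher, were *Hoxa9*, *Hoxa10* and *Hoxa11* in bin 2 (6.21% of genes called), *Hoxa5*, *Hoxa9*, *Hoxa10* and *Hoxa11* in bin 3 (6.07%) and *Hoxa3*, *Hoxa5*, *Hoxa7* and *Hoxa9* in bin 4 (8.44%). *Hoxa9* had 0.57 ± 0.10, 0.60 ± 0.11 and 0.61 ± 0.11 in these bins and kept its call without any single library. *Hoxa11* in bin 2 (0.84 ± 0.16) also kept its call without any single library, but with cut points within each library it had 0.13 and lost it. With those cut points *Hoxa10* also lost its calls in bins 2 (0.46 to 0.13) and 3 (0.41 to −0.017), *Hoxa11* in bin 3 (0.61 to −0.014) and *Hoxa7* in bin 4. Each of the other calls was lost without at least 1 library. With sex as a covariate 1, 0 and 2 members were called, and with cut points within each library 1, 3 and 3. In bin 5, 6 of the 10 members were higher in E1C8Δ/Δ than in Wt, against 10.3% of 12801 genes. They were *Hoxa3* (0.55 ± 0.12), *Hoxa5* (0.54 ± 0.12), *Hoxa7* (0.48 ± 0.10), *Hoxa9* (0.54 ± 0.13), *Hoxa10* (0.40 ± 0.09) and *Hoxa11* (0.55 ± 0.14), with adjusted p of 0.0101 to 0.0267. *Hoxa13* was not called between these groups, at 40.3, 24.8 and 27.9 CPM in E1C8Δ/Δ and 25.6, 25.5 and 39.0 CPM in Wt (−0.00086 ± 0.36). Adding sex as a covariate removed all 6 calls, and cut points within each library removed that of *Hoxa11* (0.48, adjusted p = 0.0528). Without E1C8Δ/Δ replicate 1, 2 or 3 the count was 3, 3 and 2. The share of all genes called in these alternative fits is not given beside these counts. In E1C5Δ/Δ none was called in bin 5 (edgeR; 5 at an unadjusted p below 0.05, DESeq2 2), against 1.59% of genes. *Hoxa13* stood at 7.65, 17.1 and 7.46 CPM there, below all Wt libraries (−1.49 ± 0.36, adjusted p = 0.13), and *Evx1* at 3.09, 3.75 and 2.55 CPM (−1.31 ± 0.33, adjusted p = 0.0995).

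Taking both mutants together, *Hoxa9* was higher than in Wt in bins 1 to 4, by 0.49 ± 0.09, 0.44 ± 0.09, 0.49 ± 0.10 and 0.48 ± 0.10, and had 0.43 ± 0.11 in bin 5 (adjusted p = 0.0638). *Hoxa11* was higher in bins 2, 3 and 4, by 0.69 ± 0.14, 0.54 ± 0.11 and 0.40 ± 0.10. In bin 4 it stood at 75.6, 83.3 and 77.99 CPM in Wt and at 91.4 to 108 CPM in the 6 mutant libraries. *Hoxa7* was called in bin 5 only (0.37 ± 0.09, adjusted p = 0.0329). In E1C5Δ/Δ alone edgeR called no member in bins 2 to 4, with 3, 4 and 2 at an unadjusted p below 0.05, and DESeq2 called 0, 1 and 1. *Hoxa11* had 0.53 ± 0.15, 0.47 ± 0.12 and 0.41 ± 0.11 there (adjusted p = 0.138, 0.0798 and 0.0616). The share of all genes called is not given for E1C5Δ/Δ in these bins. For both mutants together, no member was called in any bin without Wt replicate 2 or 3 or with sex as a covariate. Of the 9 fits that each left out 1 library, the calls of *Hoxa9* in bins 1 to 4 held in 1, 4, 6 and 7 and those of *Hoxa11* in bins 2 to 4 in 3, 3 and 1. For both mutants together the background over the 5 bins was 0.299%, 1.10%, 1.40%, 3.86% and 2.75% of genes. With cut points within each library all 7 of these calls were lost: *Hoxa9* had 0.35, 0.33, 0.34 and 0.38 in bins 1 to 4, and *Hoxa11* had 0.024, −0.0097 and 0.073 in bins 2 to 4. Bin 1 held 12.1% to 17.5% of the cells in Wt and 19.2% to 24.7% in the mutants.

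The gradient itself was tested for a difference between genotypes. Its slope, the distal minus proximal log2 difference, gave no called member between both mutants and Wt (0 called by edgeR and by DESeq2, 3 at an unadjusted p below 0.05), against 1.72% of genes. For *Hoxa11* the difference in slope was −0.17 ± 0.18. For *Hoxa13* and *Evx1* bin 1 is at background, so this comparison does not measure a slope of theirs. In E1C8Δ/Δ alone the slope of *Hoxa10* was smaller than in Wt by 0.44 ± 0.10 (difference −0.44, adjusted p = 0.0438, 1.21% of genes called). That contrast in E1C8Δ/Δ alone was not rerun under any alternative. With cut points within each library, the *Hoxa10* excess of E1C8Δ/Δ over Wt in bin 1 fell from 0.81 to 0.42 and lost its call. In bin 5 the excess lay between 0.36 and 0.41 under the alternatives. The posterior minus anterior difference gave 0 called members in both mutants against Wt as well (edgeR and DESeq2, 3 at an unadjusted p below 0.05), against 0.295% of genes.

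At equal depth, a larger share of the bin-5 cells of the mutants had a *Hoxa11* UMI. This is a share and not a number of cells. Bin 5 itself held 21.0% to 31.1% of a library's cells in Wt and 13.9% to 22.2% in the mutants. The edgeR test of both mutants in bin 5 did not call *Hoxa11*. A *Hoxa11* UMI was found in 54.1% ± 12.4 (SD, n = 3) of bin-5 cells in Wt and in 72.7% ± 4.32 (n = 6) in the mutants, where every library (66.9% to 78.4%) lay above every Wt library (39.9% to 63.0%). The difference of 18.7 points had p = 0.0238 in a two-sided exact permutation test, the smallest p that 3 against 6 libraries allow. Without thinning it was 8.44 points (exact permutation p = 0.0952), and leaving out a Wt library gave a p above 0.05, since the test can then go no lower. For *Hoxa13* the share was 21.6% ± 7.94 in Wt, and the mean of the 6 mutant libraries differed from it by −6.63 points (exact permutation p = 0.381). With cut points within each library the *Hoxa13* difference was −11.8 points (exact permutation p = 0.0952). With the common cut points but without Wt replicate 3 it was −2.09 points for *Hoxa13* and 11.6 points for *Hoxa11*. Here the mutants differed among themselves: E1C8Δ/Δ had 29.7%, 18.3% and 18.4% and E1C5Δ/Δ 4.73%, 12.9% and 5.99%.

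**Figure D5:**
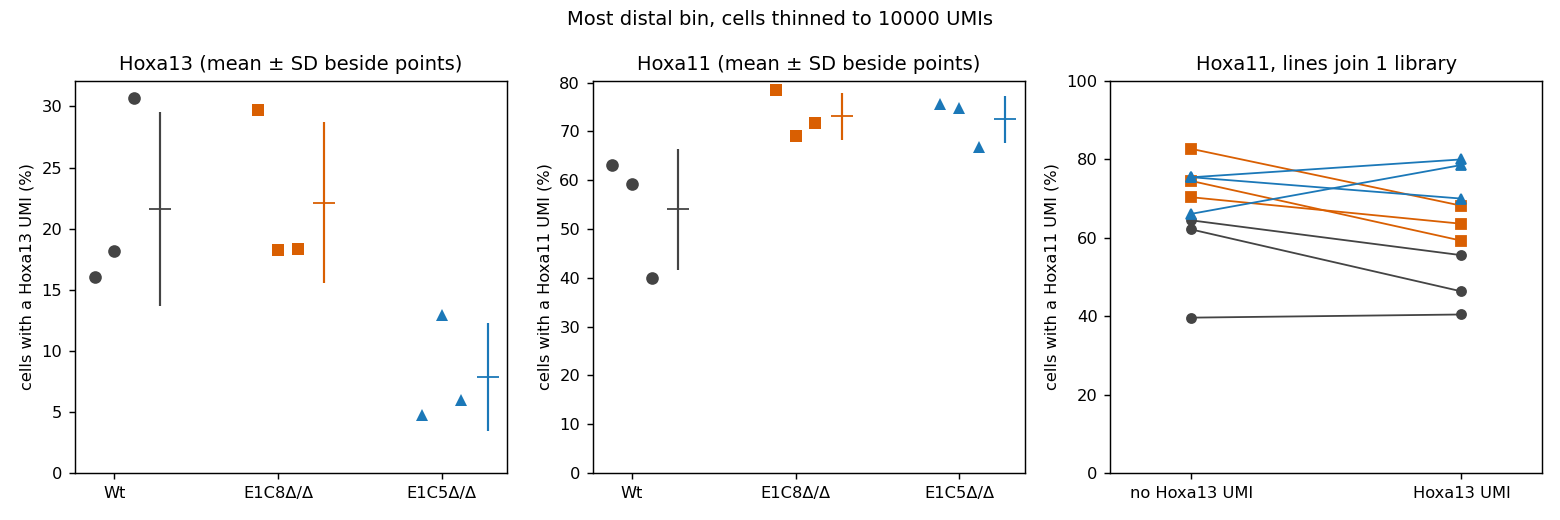
Share of bin-5 cells (y axis, percent, cells thinned to 10000 UMIs) with a *Hoxa13* or a *Hoxa11* UMI by genotype, and the share with *Hoxa11* among cells without and with a *Hoxa13* UMI joined by library. Each point is 1 library, and bars beside the points of the first 2 panels give the mean ± SD of a genotype; the mutant libraries lie between 66.9% and 78.4% for *Hoxa11*, above the 3 Wt libraries.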

How the data were processed

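The authors made the deposited files with Cell Ranger 6.0.1 on mm10 from 10x Chromium 3′ v3.1 libraries. These are unnormalized UMI counts per gene and barcode, and per the labels Seurat 4.3.0.1 followed. From these counts, barcodes with at least 2500 genes, at most 200000 UMIs and at most 10% mitochondrial UMIs were kept, simulated-doublet neighbours removed, and lineages gated by fixed markers. Cells below 10000 UMIs were not given a position. UMIs were summed per library over all mesenchyme, or per position with at least 20 cells, and tested with edgeR 4.0.16 (quasi-likelihood, filterByExpr, TMM, R 4.3.3), Benjamini-Hochberg over all genes tested, threshold 0.05. Genes on X and Y (1809), 4 transgenes and other features without a GENCODE position (32235 of 32289 had one) were left out. Gate genes were left out of comparisons between positions and of the profile correlations, and kept in comparisons between genotypes. DESeq2 1.42.0 was an alternative. On simulated data for both mutants against Wt in mesenchyme (15960 genes), 75.5% of 200 genes changed by 1 on the log2 scale were recovered, with 17 false calls. In this draw the false calls were a larger share of all calls than the threshold of 0.05. Smaller changes, such as the 0.49 of *Hoxa9* in E1C8Δ/Δ mesenchyme, were not simulated. CPM are UMIs per 1000000 UMIs of the sum; 3′ UMIs are not scaled by transcript length, so levels are compared between samples and not between genes. Each SE of a log2 fold change is its size divided by the square root of the F statistic of the edgeR test. It is therefore approximate, above all for genes with few UMIs. Each SD is the spread over libraries.

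All 10 members are named, with the 5 genes most like *Hoxa13* and *Hoxa11* by correlation over Wt positions, and lists of TALE cofactors, Polycomb and trithorax genes, HOXA13-dependent genes and cluster neighbours. Members and lists were chosen with earlier results of these data known. The replicate numbers do not pair the libraries. E1C8Δ/Δ and E1C5Δ/Δ share the Wt libraries when compared with Wt. Promoter windows and starts are from RefSeq (GRCm38.p6), gene spans from GENCODE. Some genes of these lists are counted but not reported by name here.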

Additional observations from a re-analysis of the deposited data

Results flagged for a closer look

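The direct comparison of E1C8Δ/Δ with E1C5Δ/Δ tests whether the effects of the 2 deletions against Wt differ, and edgeR called it for the values given here (log2 fold changes, positive when higher in E1C8Δ/Δ). In all mesenchyme these were *Hoxa3* 0.40, *Hoxa10* 0.42 and *Evx1* 1.24. In bin 1 they were *Hoxa9* 0.50, *Hoxa10* 1.14, *Hoxa11* 1.05 and *Hoxa13* 2.59, and in bin 2 *Hoxa10* 0.65 and *Hoxa13* 2.13. In bin 3 *Hoxa10* had 0.41 and *Evx1* 2.42, in bin 4 *Hoxa10* had 0.40, and in bin 5 *Hoxa3* had 0.59, *Hoxa10* 0.51 and *Evx1* 1.48. *Hoxa10* was called in each of the 5 bins and in mesenchyme, but its call in bin 3 was kept in only 3 of the 9 fits that left out 1 library, in bin 4 in 5 of 9 and in mesenchyme in 7 of 9. The calls of *Hoxa3* and *Evx1* in mesenchyme were kept in 2 and 5 of 9 such fits, that of *Evx1* in bins 3 and 5 in 3 and 4, that of *Hoxa9* in bin 1 in 5, and that of *Hoxa13* in bins 1 and 2 in 7 and 4.

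The values of *Hoxa13* in bins 1 and 2 and of *Evx1* in bin 3 rest on few molecules. *Hoxa13* had 4, 1 and 4 UMIs in bin 1 of E1C5Δ/Δ and 1, 20 and 17 in E1C8Δ/Δ, and *Evx1* had 2, 2 and 4 UMIs in bin 3 of E1C5Δ/Δ and 4, 12 and 11 in E1C8Δ/Δ. The distal minus proximal difference of *Hoxa10* was smaller in E1C8Δ/Δ than in Wt, with a difference of −0.44, in a contrast that was not rerun under any alternative. Groups of 3 libraries were too small for a check of single outlying libraries.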

How the results depend on the processing

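The proximodistal gradient kept 9 called members, and each kept its direction, under every alternative run: DESeq2, another normalization, no low-count filter, no doublet removal, cut points within each library, wider gate lists and leaving out each of the 9 libraries. For both mutants together, both interactions kept 0 called members when any library was left out, and the distal minus proximal one under all alternatives. That of the anteroposterior axis gave 1 without a low-count filter and 1 with cut points within each library. Interactions in a single mutant were not rerun. The posterior–anterior count stayed between 7 and 8 with a library left out and fell to 3 within the most distal bin, where the sign turned for *Hoxa4* (0.052), *Hoxa5* (0.16), *Hoxa9* (−0.22), *Hoxa10* (−0.0028) and *Hoxa11* (−0.26).

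The genotype counts were less stable, and the causes were not tested. Shares of all genes called under the alternatives are not given, so losses among members cannot be told from losses over all genes. DESeq2 called 4 members in mesenchyme of both mutants, 4 in E1C8Δ/Δ and 2 in E1C5Δ/Δ, 0 in bin 1 of E1C5Δ/Δ, and 3 for both mutants and 2 for E1C5Δ/Δ in bin 5. No low-count filter gave 1 in mesenchyme and 3 in bin 5 of both mutants. Embryo sex as a covariate, added because all Wt libraries are male, gave 0 for either mutant in mesenchyme, for both mutants in each of the 5 bins, for E1C5Δ/Δ in bin 1 and for E1C8Δ/Δ in bin 5. Cut points within each library gave 0 for both mutants in bins 1, 2, 4 and 5 and 1 in bin 3, 2 for E1C5Δ/Δ in bin 1 and 1 in bin 5. In bin 3 they turned the sign of *Hoxa11* in both mutants (−0.0097) and of *Hoxa10* (−0.017) and *Hoxa11* (−0.014) in E1C8Δ/Δ. Wider gate lists gave 0 in bin 1 of both mutants and of E1C5Δ/Δ and 1 in bin 5 of E1C5Δ/Δ. The *Hoxa11* share differed by 8.44 points when not thinned.

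Same-numbered libraries did not deviate together (9 correlations from −0.144 to 0.074, 0 over 0.1), so the replicate numbers are only names. Differently numbered pairs ranged from −0.151 (Wt replicate 1 with E1C5Δ/Δ replicate 2) to 0.258 (Wt replicate 1 with E1C5Δ/Δ replicate 3). Whether libraries share a batch under other numbers was not tested. With the replicate number as a block, 0 members were called in mesenchyme of E1C8Δ/Δ and of E1C5Δ/Δ, 1 between the mutants, 0 in bins 1, 2 and 3 and 1 in bin 4 of both mutants, and 0 in bin 1 of E1C5Δ/Δ, while E1C8Δ/Δ kept a count of 3 in bin 1 and 6 in bin 5.

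With 1 library left out in turn, the count in mesenchyme ranged from 0 to 1 for both mutants, 0 to 3 for E1C8Δ/Δ (0 without Wt replicate 2 or E1C8Δ/Δ replicate 3), 0 to 2 for E1C5Δ/Δ (0 without Wt replicate 3 or E1C5Δ/Δ replicate 1 or 3) and 0 to 3 between the mutants (0 without E1C8Δ/Δ replicate 1). In the bins it ranged for both mutants from 0 to 1 in bin 1 (1 only without E1C5Δ/Δ replicate 3), 0 to 2 in bins 2, 3 and 4 (0 in each without Wt replicate 2 or 3) and 0 to 3 in bin 5 (0 without Wt replicate 2 or 3, E1C8Δ/Δ replicate 3 or E1C5Δ/Δ replicate 1). For E1C8Δ/Δ it stayed at 3 in bin 1 and ranged from 2 (without its replicate 3) to 6 in bin 5, being 3 without its replicate 1 or 2. For E1C5Δ/Δ it ranged from 0 to 1 in both of these bins, and in bin 1 it was 1 only without Wt replicate 1 or E1C8Δ/Δ replicate 1. The share with *Hoxa13* differed by −9.57 to −2.09 points, that with *Hoxa11* by 11.6 (without Wt replicate 3) to 23.2 points, and *Hoxa11* in cells with and without *Hoxa13* by −7.66 (without E1C5Δ/Δ replicate 3) to −4.13 points. The few UMIs of *Hoxa13* and *Evx1* in the proximal bins and of E1C8Δ/Δ replicate 1 limit what can be seen there.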

Other observations

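Outside the mesenchyme, muscle precursors, gated by *Pax3*, *Lbx1*, *Met*, *Myf5*, *Pax7* and *Myod1*, had high levels of *Hoxa10* and *Hoxa11* and little *Hoxa13*. In Wt muscle *Hoxa11* stood at 105, 128 and 77.2 CPM and *Hoxa10* at 161, 147 and 113 CPM, from 228, 199 and 37 cells. *Hoxa11* in Wt mesenchyme was lower in each of the same libraries, at 68.7, 58.0 and 55.2 CPM. *Hoxd11*, its paralog, stood at 5.04 to 9.96 CPM in Wt muscle against 205 to 277 CPM in Wt mesenchyme, and *Hoxa13* at 0.90 to 2.88 CPM. No test was run between these cell types.

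Endothelial cells held more *Hoxa3* than mesenchyme, on average more *Hoxa4*, and less of *Hoxa5*, *Hoxa6* and *Hoxa7*. *Hoxa3* stood at 14.3 to 23.6 CPM over the 9 libraries there, above its mesenchymal level in the same library in 9 of 9 cases, while *Hoxa13* stood at 0 to 1.03 CPM. In the 2 Wt libraries with at least 20 endothelial cells, *Hoxa5* averaged 14.05 CPM against 24.6 CPM in the mesenchyme of the 3 Wt libraries, *Hoxa6* 0.41 against 4.05 CPM and *Hoxa7* 7.82 against 47.7 CPM. *Hoxa4* averaged 4.06 against 3.50 CPM there, with overlapping ranges. In libraries with at least 20 endothelial cells it averaged 8.70 against 4.73 CPM in E1C8Δ/Δ and 8.39 against 4.49 CPM in E1C5Δ/Δ. The endothelial sums of E1C8Δ/Δ replicate 1 and Wt replicate 3 hold 5 and 16 cells.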
